A study of Mus musculus with 8 samples.

Results

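The 9 genes described here are encoded by the mouse mitochondrial genome: mt-Nd1, mt-Nd2, mt-Nd4 and mt-Nd5 of complex I, mt-Cytb of complex III, mt-Co1, mt-Co2 and mt-Co3 of complex IV, and mt-Atp6 of complex V. They were taken by name, and all 9 had a row among the 32285 genes of the count table. The table also holds 4 further genes of the same genome (mt-Nd3, mt-Nd4l, mt-Nd6 and mt-Atp8), which are described apart. The counts come from whole mouse bone marrow cells grown on irradiated AFT024 cells, a stromal line from mouse fetal liver, with either medium alone (media control) or deoxycholic acid at 35 µM for 1 week. Deoxycholic acid is a secondary bile acid that gut bacteria make from a primary one. Both groups received the same hydrocortisone-containing medium, and lineage-negative cells were sorted from both before single-cell 3′ RNA sequencing. The sources used here do not give strain, sex or age of the mice. The labels list 4 samples per group, but a cell's name carries only its group, so each group was treated as 1 library, no difference between them has a replicate check, and no p-value is given. The intervals printed cover the counting error of UMIs (unique molecular identifiers, 1 per captured RNA molecule) and nothing else.

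The mitochondrial genome codes for core subunits of the respiratory chain, and all other subunits come from nuclear genes and are imported. Its genes are read as long precursor RNAs from both strands, which are cut mostly at the tRNAs that lie between the coding parts and then receive short poly(A) tails. Because these genes share precursors, differences between their steady levels also arise after transcription. Complex I takes electrons from NADH, complex III passes them to cytochrome c, complex IV passes them on to oxygen, and complex V makes ATP. Neutrophils are known as cells with few mitochondria and a strong reliance on glycolysis.

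A 3′ library reads the part of an RNA next to its poly(A) tail. For the members on which the results turn, the last 60 bases of the annotated transcript are shown 5′ to 3′, with the stop codon, or the lone base past the last full codon, in capitals (GENCODE vM21, build GRCm38, used here for sequences only, since no source used here names the build behind the counts).
mt-Nd1: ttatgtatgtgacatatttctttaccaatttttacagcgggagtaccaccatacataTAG
mt-Nd2: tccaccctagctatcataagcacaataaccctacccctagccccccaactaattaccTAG
mt-Cytb: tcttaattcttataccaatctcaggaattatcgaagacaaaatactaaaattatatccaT
mt-Co1: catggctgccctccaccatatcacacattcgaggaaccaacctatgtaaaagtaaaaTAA
mt-Co2: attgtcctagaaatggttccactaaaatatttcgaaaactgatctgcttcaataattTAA
The annotated mt-Nd1, mt-Nd2, mt-Co1 and mt-Co2 end in a full stop codon. The annotated mt-Cytb ends in a lone T, as do mt-Nd4 and mt-Co3, and such a stop codon is completed by the poly(A) tail.

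Parts of the mitochondrial genome have copies in the nuclear genome. Of all windows of 31 bases, 100% of those in mt-Co2, 99.9% in mt-Co3 and 99.5% in mt-Atp6 also occur in an annotated nuclear pseudogene. The share was 63.9% for mt-Co1, 62.8% for mt-Nd4, 16.8% for mt-Nd5, 13.5% for mt-Nd2, 6.55% for mt-Cytb and 0% for mt-Nd1. None of these pseudogenes has a row in the table, and no source used here says how reads that match both copies were counted, so the absolute levels of the members with high shares are uncertain. The same holds for mt-Atp6 and mt-Nd4, whose first bases overlap the last bases of mt-Atp8 and mt-Nd4l, and for these shorter genes.

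The media control held 9346 cell barcodes and the deoxycholic acid library 8520. After barcodes with under 300 detected genes and likely doublets were taken out, 8695 and 7957 cells were kept, with a median of 18467 and 14250 UMIs. The 2 libraries shared 25 barcode sequences. Neutrophil-lineage RNA filled both: the summed level of Ngp, Ltf, Camp and Lcn2 was 287 UMIs per 10000 in the media control against 291 with deoxycholic acid, while erythroid markers reached 0.046 and 0.0402, B cell markers 0.11 and 0.104, and 6 stromal genes of the kind the feeder cells express 0.0262 and 0.0312. Monocyte markers summed to 2.01 and 2.40, basophil markers to 1.62 and 1.29, and T and NK cell markers to 1.27 and 1.01. Cells with at least 10 per 10000 of the neutrophil list made up 89.6% and 91.7% of the kept cells.

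The members together made up 1.93% of all UMIs in the media control against 1.91% with deoxycholic acid, which is 193 and 191 UMIs per 10000. The median cell held 318 and 255 UMIs of the 9 genes. By cell, the summed level had quartiles of 136 to 220 per 10000 around a median of 175 in the media control, and of 138 to 217 around 177 with deoxycholic acid. The spread between cells of a library was thus far wider than the gap between the libraries. Per kilobase of transcript, in UMIs per 10000, mt-Co2 had the highest level in the media control at 51.1, followed by mt-Co3 at 48.5 and mt-Atp6 at 45.8. Next on the same per-kilobase scale were mt-Co1 at 28.5, mt-Nd1 at 13.8, mt-Cytb at 9.64, mt-Nd2 at 7.47, mt-Nd4 at 6.60 and mt-Nd5 at 1.95. With deoxycholic acid mt-Co3 stood at 48.8 and mt-Co2 at 42.5 per kilobase, so that the top pair changed places, and mt-Nd5 was again last at 2.31. A 3′ library takes 1 read position per molecule, so division by length understates the long mt-Nd5 and mt-Co1 if each molecule is counted once.

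To order the cells by neutrophil stage, 3 markers were used: Elane (neutrophil elastase, a primary granule protease of progenitors), Ngp (neutrophilic granule protein, of the stage that makes secondary granules) and Retnlg (resistin-like gamma, of later neutrophils). A cell was placed by which of them reached 10 UMIs per 10000, counted over UMIs outside the 13 mitochondrial genes. These are ranges of measured RNA and not cell types. Within 1.5 times of the limit lay 7.79% of media control cells for Elane, 4.91% for Ngp and 3.70% for Retnlg, and with deoxycholic acid 9.12%, 5.24% and 3.81%. In the media control 654 cells had none of the 3 at that level, 1060 had Elane only, 2890 Elane and Ngp, 3517 Ngp only, 504 Ngp and Retnlg and 62 Retnlg only. The numbers with deoxycholic acid were 536, 955, 2494, 3495, 422 and 51. Another 8 and 4 cells had all 3.

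The 9-gene level was lower at each step from Elane only to Ngp and Retnlg. In the media control it was 217 UMIs per 10000 in cells with Elane only, 195 with Elane and Ngp, 170 with Ngp only and 142 with Ngp and Retnlg. With deoxycholic acid the corresponding levels were 219, 195, 171 and 136. Cells with none of the markers held 251 and 255, but their medians per cell, 219 and 222, were close to the 211 and 213 of Elane only cells, and 5.66% and 5.78% of them had over 10% mitochondrial UMIs, against 2.64% and 1.15% of Elane only cells. The few cells with Retnlg only held 147 and 131. The log2 difference between the Ngp and Retnlg range and the Elane only range was -0.61 (95% interval -0.62 to -0.60) in the media control and -0.69 (-0.70 to -0.67) with deoxycholic acid. The quartiles over cells still overlapped in the media control, 170 to 255 in the Elane only range against 92.1 to 181 in the Ngp and Retnlg range. Total UMIs per cell moved with this order, from a median of 25623.5 to 6630 in the media control and from 18522 to 5806.5 with deoxycholic acid, and the median UMIs of the 9 genes per cell from 538.5 to 83 and from 403 to 71. Within 1 range the 9-gene level also differed with depth, over 4 equal bins of total UMIs. In the shallowest bin of the media control it was 281 with Elane only and 277 with Ngp only. The deeper bins held 207 to 213 and 153 to 165. With deoxycholic acid the shallowest bins held 243 and 233, and the deeper ones 211 to 225 and 159 to 168. The shallowest Ngp only bin thus lay above the deeper Elane only bins in both libraries. When every cell was thinned to 5000 UMIs, leaving out 838 and 798 shallower cells, the 9-gene level was 226 against 134 in the media control and 222 against 135 with deoxycholic acid. Thinning weights the cells equally and places them anew by stage. It does not alter the expected level of a cell, so it cannot show whether the level depends on depth. Levels per 10000 are relative, so less mitochondrial RNA and more of other RNA in a cell cannot be told apart.

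**Figure D1:**
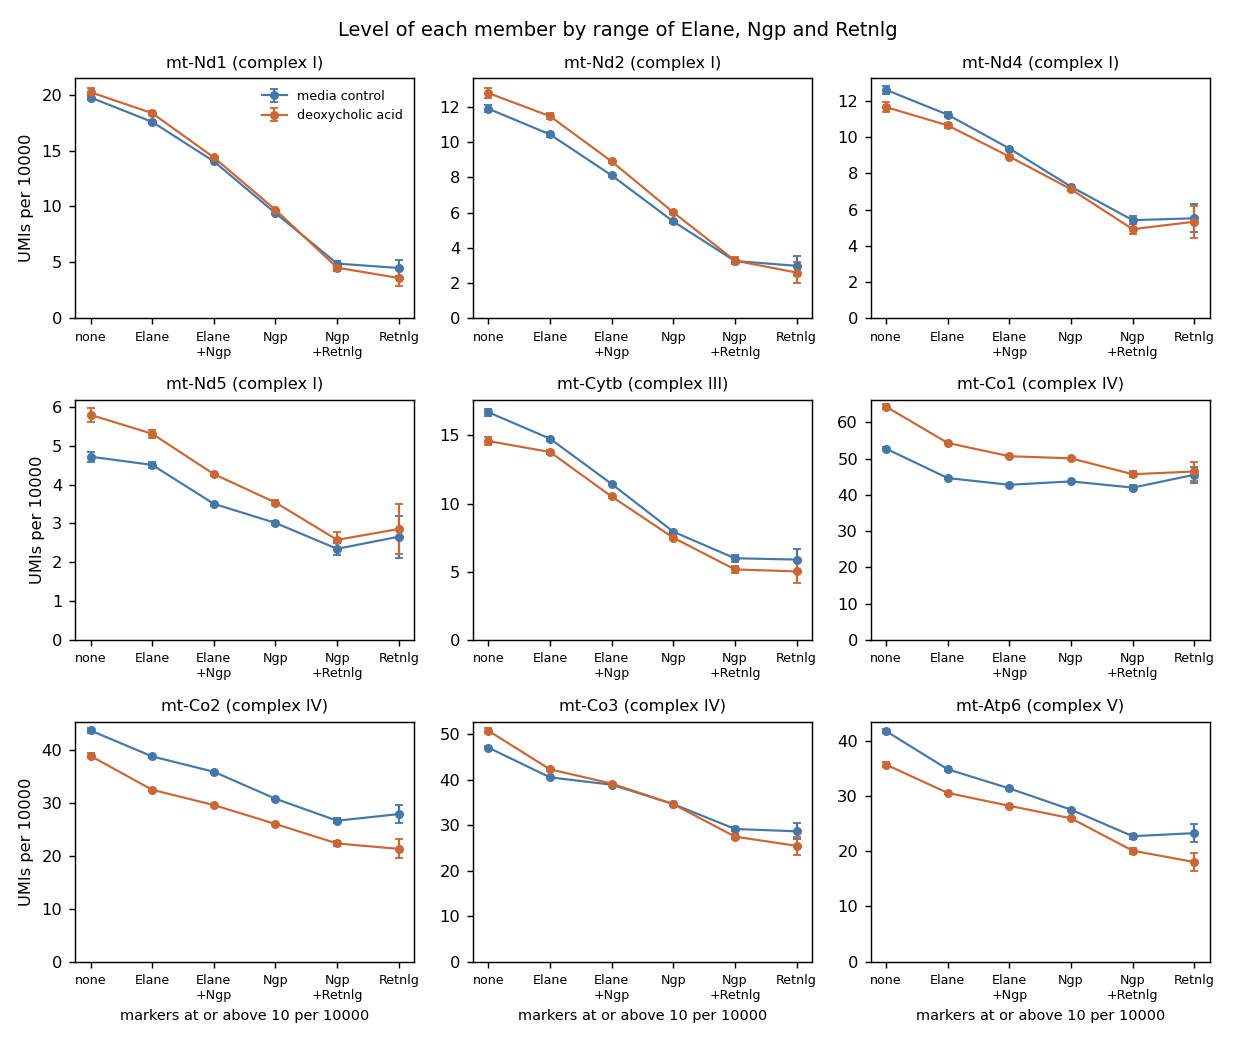
UMIs per 10000 of each member (vertical axis, from 0) in the 6 ranges of Elane, Ngp and Retnlg (horizontal axis), for the media control and deoxycholic acid libraries; bars are 95% intervals for counting error. The complex I genes and mt-Cytb descend steeply from left to right, while mt-Co1 stays between 42.0 and 52.7 in the media control, and the mt-Co1 line of deoxycholic acid lies above and the mt-Co2 line below that of the media control.

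The members did not share the difference equally. The complex I genes mt-Nd1 and mt-Nd2 differed most between the Elane only range and the Ngp and Retnlg range. In the media control mt-Nd1 was 17.6 against 4.88 UMIs per 10000, 3.60-fold lower (log2 -1.85, -1.91 to -1.78), and with deoxycholic acid 18.4 against 4.51 (log2 -2.02, -2.11 to -1.94). For mt-Nd2 the levels were 10.5 against 3.25 in the media control (log2 -1.69) and 11.5 against 3.27 with deoxycholic acid (log2 -1.81). Like those of mt-Nd4 and mt-Nd5, both proteins sit in the membrane arm of complex I, which pumps protons. The other members of complex I differed less: mt-Nd4 by log2 -1.05 in the media control against -1.12 with deoxycholic acid, and mt-Nd5 by -0.94 and -1.04. For mt-Cytb, the only mitochondrially encoded subunit of complex III, the log2 differences were -1.30 and -1.42, from 14.8 to 5.98 per 10000 in the media control.

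The genes of complexes IV and V differed less again. For mt-Atp6, the proton channel subunit of ATP synthase, the log2 difference was -0.62 in the media control against -0.61 with deoxycholic acid. It was -0.54 and -0.54 for mt-Co2, which holds the site that takes electrons from cytochrome c, and -0.47 and -0.62 for mt-Co3. The smallest difference was that of mt-Co1, the catalytic subunit of complex IV: 44.6 against 42.0 per 10000 in the media control (log2 -0.09, -0.11 to -0.06) and 54.3 against 45.7 with deoxycholic acid (log2 -0.25, -0.28 to -0.22). By a limit of log2 0.5, 7 of the 9 were lower in the media control, where 47.8% of the 5429 genes tested were (those with at least 20 CPM, which is counts scaled to a fixed library total, and 50 UMIs in the higher range), and 8 of 9 with deoxycholic acid, where 46.8% of 5474 were. By a limit of 1, 4 of 9 were lower in the media control and 5 of 9 with deoxycholic acid, not far from the 36.9% and 36.3% of all genes. No member was higher by either limit. The median over the 9 was -0.94 and -1.04, beside -0.39 and -0.34 over all genes tested.

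Because of these unequal differences, the make-up of the 9-gene RNA changed with stage. The share of mt-Nd1 in the 9-gene sum was 8.09% in the Elane only range, 7.18% with Elane and Ngp, 5.54% with Ngp only and 3.43% with Ngp and Retnlg in the media control. With deoxycholic acid it was 8.37%, 7.39%, 5.69% and 3.32%. The share of mt-Co1 ran the other way, from 20.5% to 29.5% in the media control and from 24.8% to 33.6% with deoxycholic acid. After thinning to 5000 UMIs the mt-Nd1 share was 7.73% against 3.08% and the mt-Co1 share 20.2% against 29.9% in the media control. Thinning does not alter the expected shares within a cell, so these values cannot show whether the shares depend on depth. The share of mt-Nd1 also differed between cells of 1 range by depth: from the shallowest to the deepest of 4 equal bins of total UMIs it went from 7.25% to 8.77% in Elane only cells and from 5.07% to 6.18% in Ngp only cells of the media control. Each depth bin of the Elane only cells lay above each depth bin of the Ngp only cells.

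Bins of Retnlg gave the same order of shares, and bins of Elane did so in part. Over bins of Retnlg in the media control, from cells with none to cells at 50 to 100 UMIs per 10000, the mt-Nd1 share was 7.26%, 6.42%, 4.98%, 4.26%, 3.74%, 3.42% and 2.48%. The mt-Co1 share over the same bins was 22.2%, 23.4%, 25.8%, 27.4%, 28.5%, 29.8% and 32.0%. Over bins of Elane in the media control the mt-Cytb share was 4.85% in cells without Elane, 5.73% at 10 to 20 per 10000 and 7.02% at 100 to 200, and with deoxycholic acid 4.42%, 5.22% and 6.48%. The mt-Nd2 share over the same bins was 2.98%, 4.42% and 4.44% in the media control, and the mt-Co1 share was 25.9%, 22.8% and 19.6%. The mt-Nd1 share did not follow Elane to the top, since it was 7.60% at 20 to 50 and 6.96% at 100 to 200 in the media control.

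Ratios between members were then taken inside single cells, where total RNA cancels. For each of the 36 pairs, the share of the first member in the UMIs of the pair was computed in each cell with at least 50 UMIs of that pair, and the SD over cells was set beside the SD that binomial counting alone would give. In the media control the spread beyond counting ranged from 2.26 percentage points, for mt-Nd5 with mt-Co1, to 7.31 points, for mt-Nd1 with mt-Co1, with a median of 4.94. With deoxycholic acid it ranged from 2.39 to 7.02 points with a median of 4.78. Every one of the 36 pairs thus varied between cells by more than its counting error in both libraries. The pair of mt-Nd1 and mt-Co1 moved with stage: mt-Nd1 averaged 28.2% of the pair in the Elane only range (SD 6.38 points, 993 cells) and 11.5% in the Ngp and Retnlg range (SD 6.27, 115 cells) of the media control. With deoxycholic acid the averages were 25.1% (SD 6.24, 922 cells) and 10.5% (SD 5.30, 67 cells). The minimum of 50 UMIs kept few cells of the last range, those with the most mitochondrial RNA.

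By contrast, mt-Nd1 and mt-Nd2 kept close proportions from the Elane only range to the Ngp only range. In the media control mt-Nd1 averaged 62.4% of this pair in the Elane only range, 63.7% with Elane and Ngp and 63.0% with Ngp only. The averages with deoxycholic acid were 61.4%, 62.1% and 62.6%. Yet the spread between cells within a range was among the widest of all pairs: in the Elane only range its SD was 9.24 points against 5.39 from counting in the media control, and 9.34 against 5.76 with deoxycholic acid. The averages cover only cells with at least 50 UMIs of the pair, and the Ngp and Retnlg range had too few to average. From Elane only to that range mt-Nd1 differed more than mt-Nd2. The log2 differences were -1.85 against -1.69 in the media control and -2.02 against -1.81 with deoxycholic acid.

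The mt-Nd1 share of the pair went with RNA of the hypoxia response. Bnip3 (a mitophagy receptor), Ankrd37 and Ndrg1 are induced by hypoxia-inducible factors in many cells, and the pair was looked at along their summed level after its spread had been seen. In the media control mt-Nd1 made up 64.8% (64.5 to 65.0) of the mt-Nd1 and mt-Nd2 UMIs in cells with none of these RNAs, 64.2% in cells below 2 per 10000, 57.1% at 2 to 5, 49.8% at 5 to 10 and 45.6% (44.1 to 47.2) at 10 to 20. With deoxycholic acid the shares were 64.0%, 63.4%, 56.5%, 49.7% and 45.8%, and 43.3% (40.8 to 45.8) in 86 cells above 20. At matched levels of these 3 RNAs the libraries lay within 1 point of each other. From the first of these bins to that of 10 to 20, mt-Nd1 went from 13.8 to 7.37 per 10000 in the media control and mt-Nd2 from 7.49 to 8.77.

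In all, 217 media control cells and 322 with deoxycholic acid had the 3 RNAs at or above 10 per 10000, 2.50% and 4.05% of the kept cells. The share of mt-Nd1 in the pair was 45.3% and 45.2% in them, and 63.3% and 62.1% in the remaining cells. The gap was also there inside a stage range: with Elane and Ngp it was 42.4% against 63.6% in the media control and 45.9% against 62.2% with deoxycholic acid, and with Ngp only 49.5% against 63.4% and 45.1% against 62.2%. Below 10, over cells with at least 20 UMIs of the pair, the SD was still 9.94 points against 7.28 from counting in the media control. Median depth was lower in the marked cells, 13739 against 18644.5 UMIs in the media control and 11008 against 14440 with deoxycholic acid. The 9-gene level was close in both kinds of cell, 186 against 193 per 10000 in the media control and 186 against 192 with deoxycholic acid, while mt-Co1 was higher in the marked cells, at 54.4 against 43.8 and 59.3 against 51.4.

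**Figure D2:**
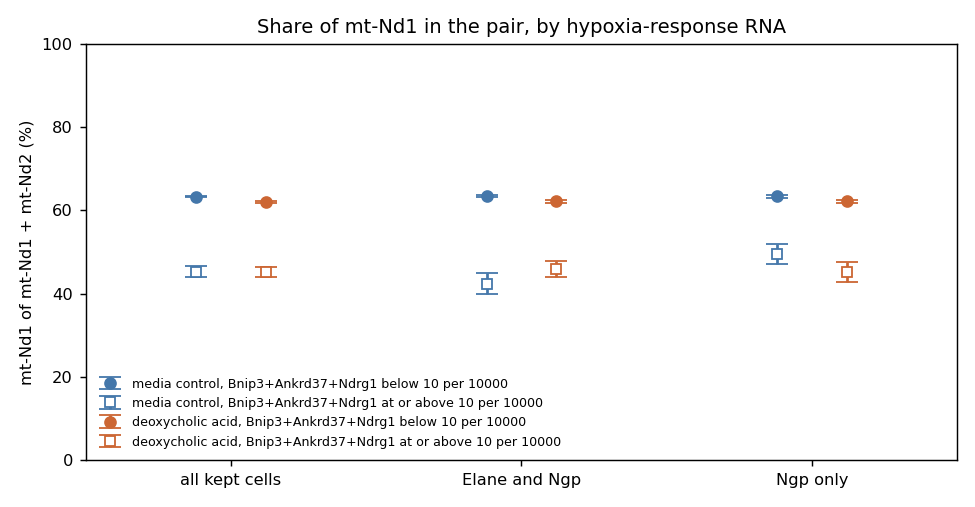
Share of mt-Nd1 in the summed UMIs of mt-Nd1 and mt-Nd2 (vertical axis, percent) in all kept cells and in 2 stage ranges, for cells below (filled circles) and at or above (open squares) 10 UMIs per 10000 of Bnip3, Ankrd37 and Ndrg1 together; bars are exact 95% binomial intervals. The squares lie between 42.4% and 49.5%, and the circles between 62.1% and 63.6%, in both libraries.

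Between the libraries the 9-gene sum hardly differed, with a log2 ratio of deoxycholic acid over media control of -0.011 (-0.013 to -0.0083), but its parts did. In complex IV, mt-Co1 was 44.0 UMIs per 10000 in the media control against 51.6 with deoxycholic acid (log2 0.23, 0.23 to 0.24). The level of mt-Co2 was 35.0 in the media control against 29.0 with deoxycholic acid (log2 -0.27, -0.27 to -0.26). For mt-Co3 it was 38.0 and 38.3 (log2 0.01), a ratio whose sign turned with the scaling, at -0.05 with DESeq2 size factors. Genes whose proteins sit in 1 complex thus stood on opposite sides. Cells marked by the cycling genes Mki67, Top2a and Cenpf made up 31.9% of the media control and 38.3% of the deoxycholic acid library. Within them the ratios were 0.18 for mt-Co1, -0.29 for mt-Co2, -0.05 for mt-Co3 and -0.04 for the 9-gene sum.

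In complex I, mt-Nd5 was 3.56 per 10000 in the media control against 4.20 with deoxycholic acid (log2 0.24, 0.22 to 0.26) and mt-Nd2 was 7.76 and 8.31 (log2 0.10). For mt-Nd4 the levels were 9.09 and 8.58 (log2 -0.08). For mt-Nd1 they were 13.2 and 13.3 (log2 0.01), with a ratio of -0.04 under DESeq2 size factors. Complex I held members on both sides too. The level of mt-Cytb was 11.0 in the media control against 10.0 with deoxycholic acid (log2 -0.14), and that of mt-Atp6 31.2 and 28.0 (log2 -0.16).

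At a limit of log2 0.25, 1 of the 9 members was lower with deoxycholic acid (mt-Co2) and none was higher, beside 12.1% of 4673 genes tested that were lower and 14.6% that were higher. At 0.5 no member passed, beside 3.06% and 1.69%. The central 95% of all genes tested lay between -0.55 and 0.44 around a median of 0.04, so each member's ratio lay within the usual spread of genes between these 2 libraries. When each cell was weighted equally, the ratio of mt-Co1 was 0.12, that of mt-Atp6 -0.27, that of mt-Cytb -0.22 and that of mt-Co2 -0.35. The mean of the ratios within stage ranges was -0.24 for mt-Co2, which then no longer passed 0.25, and DESeq2 size factors gave 0.04 for mt-Nd2.

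**Figure D3:**
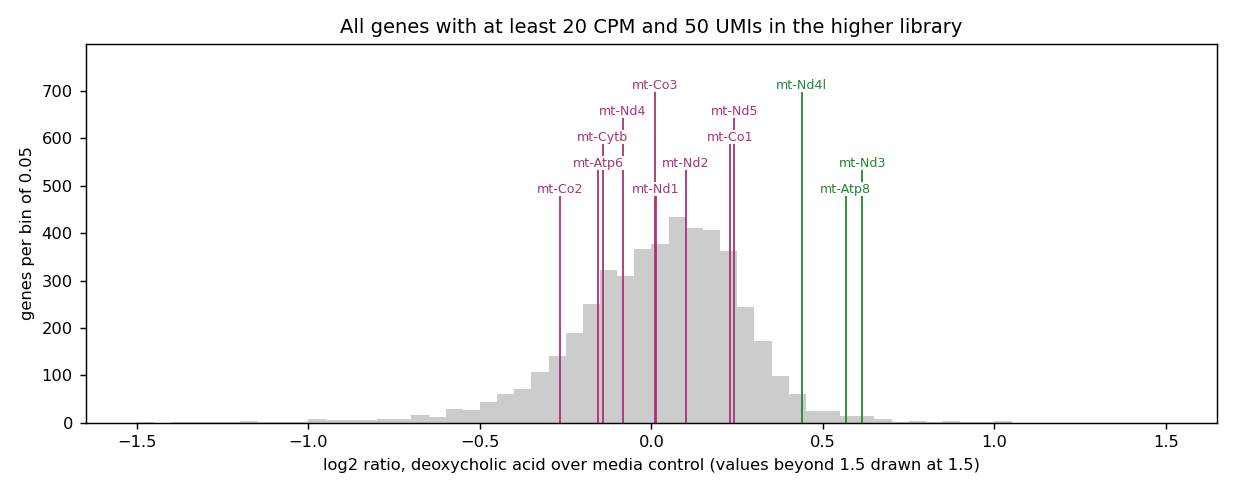
Histogram of the log2 ratio of deoxycholic acid over media control for the 4673 genes tested (horizontal axis; vertical axis, genes per bin of 0.05), with vertical lines for the 9 members (purple) and for mt-Nd4l, mt-Nd3 and mt-Atp8 (green); line height carries no value. The members lie between -0.27 and 0.24 inside the bulk of genes, and the other 3 lie at 0.44 to 0.62, on its right flank; mt-Nd1 and mt-Co3 turned sign with DESeq2 size factors.

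For 7 members the ratio had 1 sign in the 5 stage ranges with enough cells. In the 5 ranges with at least 100 cells per library, mt-Co1 was higher with deoxycholic acid in 5 of 5 (log2 0.12 to 0.29), as were mt-Nd5 (0.14 to 0.30) and mt-Nd2 (0.01 to 0.14). Lower in 5 of 5 were mt-Co2 (-0.28 to -0.17), mt-Atp6 (-0.23 to -0.08), mt-Cytb (-0.21 to -0.08) and mt-Nd4 (-0.14 to -0.03). Among all 4670 genes tested, 27.5% were higher and 21.5% lower in all 5, against 3 and 4 of the 9 members. The intervals of mt-Nd2 (-0.11 to 0.13) and mt-Nd5 (-0.0082 to 0.28) in the Ngp and Retnlg range held 0. In the 62 and 51 cells with Retnlg only, the ratio of mt-Nd2 was -0.20 (-0.67 to 0.26). In cells marked by Ccr2, Ms4a6c, Csf1r and F13a1, monocyte genes (354 and 428 cells), mt-Nd2 was at -0.10 (-0.16 to -0.04) and the 9-gene sum at -0.17. For mt-Nd1 the ratio was above 0 in 4 ranges and below in 1, and for mt-Co3 above in 3 and below in 2. Over the 5 ranges the ratio of mt-Co1 was smallest, 0.12, in the Ngp and Retnlg range, and it was 0.28 in the Elane only range. It was lower still in cells with Retnlg only, at 0.03 (-0.08 to 0.14), and in the monocyte-marked cells, at 0.04 (0.02 to 0.07).

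**Figure D4:**
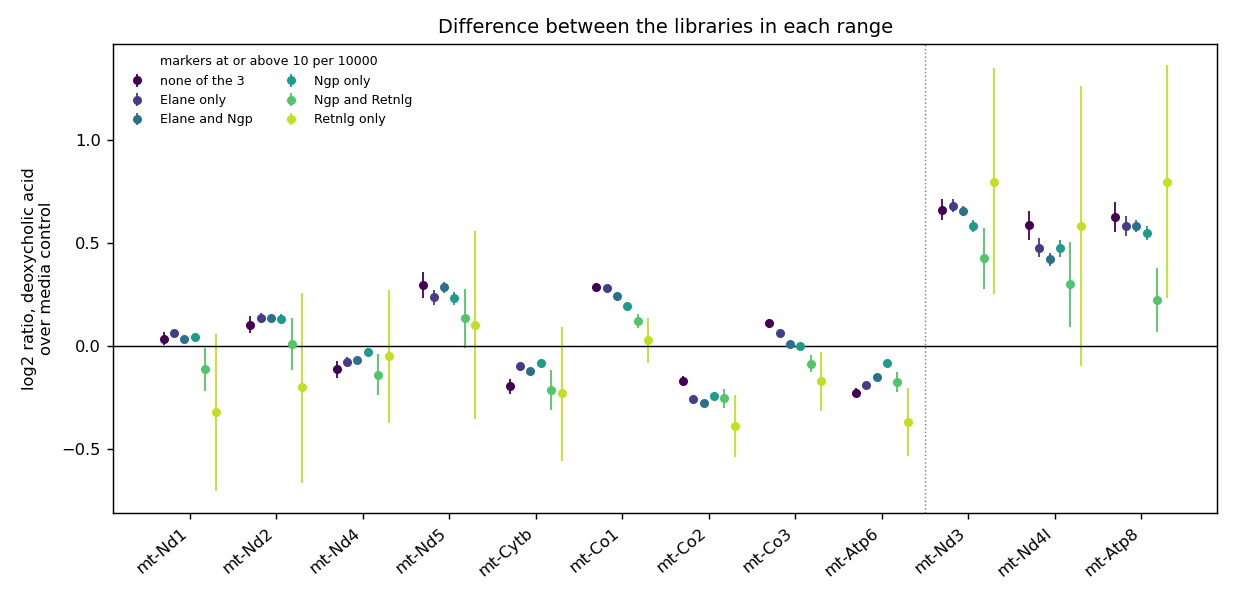
Log2 ratio of deoxycholic acid over media control (vertical axis) for each member and, right of the dotted line, mt-Nd3, mt-Nd4l and mt-Atp8, in 6 stage ranges (colours); bars are 95% intervals for counting error. Points of mt-Co1 and mt-Nd5 lie above 0 and points of mt-Co2, mt-Cytb and mt-Atp6 below 0 in every range shown, and the 3 genes on the right reach up to 0.68 in the 5 ranges with at least 100 cells per library.

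Inside single cells, the pair of mt-Co1 and mt-Co2 showed the largest shift of the 36 between libraries. On average mt-Co1 made up 55.9% of the pair in 7439 media control cells (SD 7.41 points, of which counting gives 4.37) and 63.9% in 6589 cells with deoxycholic acid (SD 6.74, counting 4.57). The shift of 7.99 points was 1.13 times the mean SD over cells, and over the 36 pairs this measure ran from -0.86, for mt-Co2 in its pair with mt-Co3, to 1.13. The central 90% of cells overlapped, from 43.4% to 67.7% in the media control and from 52.5% to 74.2% with deoxycholic acid. By range, the averages were 54.7% and 61.9% in cells with no marker, 52.8% and 62.2% with Elane only, and 53.8% and 62.6% with Elane and Ngp. They were 58.8% and 65.8% with Ngp only and 61.0% and 66.8% with Ngp and Retnlg. The shift between libraries in the Elane only range, 9.43 points, exceeded the difference between the Elane only and the Ngp and Retnlg averages within either library.

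**Figure D5:**
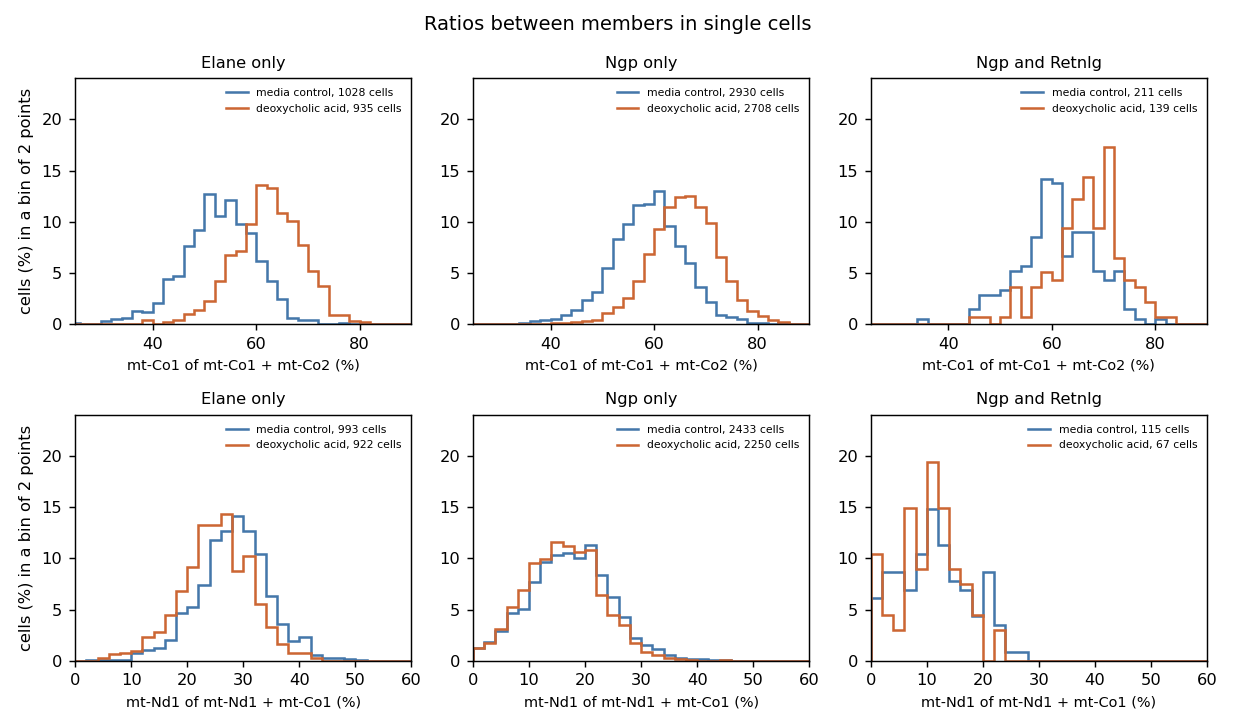
Distribution over single cells (vertical axis, percent of cells per bin of 2 points) of the share of mt-Co1 in the mt-Co1 and mt-Co2 UMIs (top) and of mt-Nd1 in the mt-Nd1 and mt-Co1 UMIs (bottom), in 3 stage ranges, for both libraries. In the top row the deoxycholic acid curve is displaced to the right of the media control curve; in the bottom row both curves move left from Elane only (28.2% and 25.1% on average) to Ngp and Retnlg (11.5% and 10.5%).

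In barcodes with little other RNA the member ratios differed in size from those in the remaining cells. Among kept cells, 210 in the media control (2.42%) had over 10% mitochondrial UMIs, as did 159 with deoxycholic acid (2.00%), with median totals of 2346 and 1908 UMIs. In these cells mt-Co1 made up 20.3% of the 9-gene sum in the media control against 23.3% with deoxycholic acid, beside 22.9% and 27.1% in cells at or below 10%. The log2 ratio of deoxycholic acid over media control was 0.07 (0.05 to 0.10) for mt-Co1 in cells over 10% and 0.24 (0.24 to 0.25) in cells at or below 10%. It was -0.40 and -0.14 for mt-Atp6, and -0.13 and 0.0012 for the 9-gene sum. The ratio of mt-Co2 was closer in both kinds of cell, -0.32 and -0.26. In 69 and 40 barcodes with under 300 genes, which were left out of all other results, the 9 genes made up 61.3% and 52.3% of UMIs, the mt-Co1 share was 15.7% and 19.3%, and the mt-Co2 share was 20.3% and 18.7%. The part that free RNA in the droplets has in the levels was not tested.

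Of the other mitochondrial genes, 3 stood apart from the members between the libraries. The level of mt-Nd3 (complex I) was 4.19 UMIs per 10000 in the media control against 6.42 with deoxycholic acid (log2 0.62, 0.60 to 0.63). For mt-Atp8 (complex V) it was 2.51 and 3.71 (log2 0.57, 0.55 to 0.59), and for mt-Nd4l (complex I) 2.24 and 3.03 (log2 0.44, 0.42 to 0.46). All 3 were higher with deoxycholic acid in 5 of 5 stage ranges, and mt-Nd3 and mt-Atp8 passed the limit of 0.5 that 1.69% of genes passed. Their annotated transcripts, at 348, 204 and 297 bases, are shorter than every member, which run from 681 to 1824 bases. Their pseudogene shares were 98.1%, 7.47% and 98.9%. The last bases of mt-Atp8 and mt-Nd4l overlap the first bases of mt-Atp6 (log2 -0.16) and mt-Nd4 (-0.08). How reads from RNA that holds both genes of such a pair were counted is not known. The ratios of mt-Atp8 and mt-Nd4l may therefore not stand for separate transcripts. The fourth, mt-Nd6, which is encoded on the opposite strand from the rest, had 0.18 and 0.181 per 10000 and was below the minimum for testing. With these 4 included, the summed level was 202 and 205 per 10000 (log2 0.02).

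Nuclear genes that serve the same complexes differed more along the stages than the 9-gene sum did. Of 33 nuclear-encoded subunits of complexes I, III, IV and V, 32 were lower by at least 0.5 in the Ngp and Retnlg range of the media control and 31 with deoxycholic acid, with medians of -1.70 and -1.65, where 47.8% and 46.8% of all genes tested were lower by that limit. Their summed level was 209 against 69.9 UMIs per 10000 in the media control and 206 against 65.2 with deoxycholic acid. This is a larger difference than that of the 9-gene sum. Single members varied, and mt-Nd1 (-1.85 and -2.02) and mt-Nd2 (-1.69 and -1.81) differed about as much as the nuclear medians or more. Between the libraries, 25 of the 33 nuclear-encoded subunits had a ratio below 0 and 8 above, 5 passed -0.25 and none 0.25. Their median was -0.14. Over all genes tested the median was 0.04, so more of those lay above 0 than below. The 5 of 33 are near the 12.1% of all genes tested that passed -0.25, while 14.6% passed 0.25. The most abundant were the complex IV subunits Cox8a (log2 -0.15), Cox4i1 (-0.11), Cox6c (-0.04) and Cox7c (0.11).

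Factors that make and handle mitochondrial RNA were mostly below the minimum for testing, again 20 CPM and 50 UMIs in the higher library. Of 17 genes of mitochondrial transcription and DNA upkeep, 3 were tested: Ssbp1, a single-stranded DNA binding protein, at -0.50, Tfam, which packs mitochondrial DNA and starts its transcription, at 0.05, and Polg, the DNA polymerase, at 0.21. Of 22 genes of RNA processing and stability, 7 were tested, 1 passed -0.25 and none 0.25, beside 12.1% and 14.6% of all genes tested. Among them were Slirp, which steadies mitochondrial mRNAs, at 0.22, Hsd17b10, a part of the enzyme that cuts tRNA 5′ ends, at -0.09, the oligoribonuclease Rexo2 at -0.40 and the RNA-binding Grsf1 at -0.01. The 3 of 10 regulators of mitochondrial biogenesis that could be tested, Yy1, Nrf1 and Gabpa, lay at 0.08, 0.16 and 0.05. Of 9 mitophagy genes 3 were tested: Bnip3 was higher with deoxycholic acid at 0.66, from 75.1 to 119 CPM, while Sqstm1 was at 0.24 and Bnip3l at 0.09. Along the stages, the tested mitophagy genes were higher by at least 0.5 in the Ngp and Retnlg range, 3 of 3 in the media control and 5 of 5 with deoxycholic acid, beside 32.9% and 34.4% of all genes.

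Across cells the members went together more than apart. Pearson's r between log2 levels of 2 members had a median of 0.75 over the 36 pairs in the media control (lowest 0.59, highest 0.90) and 0.71 with deoxycholic acid, and 0.64 and 0.60 among cells at or below 10% mitochondrial UMIs. These values share cell depth and the cells' total, and are given as a description. Of 4321 nuclear genes at 20 CPM or more in both libraries, those most like the 9-gene sum across cells, by the mean r of the 2 libraries, were the non-coding Gm26917 (0.44), Rpsa (0.30), a ribosomal protein gene, the nuclear RNA Malat1 (0.29), AC149090.1 (0.28) and Ncl (0.27), which codes for nucleolin. The median over all 4321 was 0.02.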

How the data were processed

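The deposited table holds UMI counts, which are whole numbers that were not normalized, for each gene in each cell. The authors made them with Cell Ranger 6.0, per the submitters' processing notes, from libraries of the 10x 3′ kit v3.1 aimed at 8000 cells each, per the labels. No source used here names the genome build or annotation. Cells treated with lithocholic acid were not analysed here. Barcodes needed 300 detected genes, and the 6% with the highest Scrublet scores per library were taken out (scanpy 1.11.5), since Scrublet's own limit marked 0% and 0.0236%. No limit was set on the mitochondrial share, which the members themselves make up. UMIs were summed over cells per library, and log2 ratios carry exact 95% binomial intervals. Per cell, r was taken on log2(UMIs per 10000 + 1). Ratios were read only for genes that reached 20 CPM and 50 UMIs in 1 library or both. In simulated counts for 4509 genes, the median recovered log2 ratio of genes changed 2-fold was 1.00, and a pair spread of 5 points came back as 5.03. The members and all gene lists were chosen with earlier results of these data known. Named were all 13 mitochondrial genes, the 4 most abundant tested genes of each list with any past 0.5, and the 5 genes most like the members, of which 1 under an alternative is not reported here; mt-Co1 with mt-Co2, the hypoxia-marked cells and other pairs shown were chosen after their values were seen. Alternatives changed the filters, the total, the scaling, the weights, the stage limit and the depth.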

Additional observations from a re-analysis of the deposited data

How the results depend on the processing

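The log2 ratio of the 9-gene sum between libraries, -0.01, was 0.0012 in cells at or below 10% mitochondrial UMIs, -0.067 with DESeq2 size factors, -0.10 as a mean over cells and -0.0062 as a mean of the stage ranges. The number of members lower by at least 0.25, 1 in the main analysis, was 2 as a mean over cells and 0 as a mean of the stage ranges. The log2 difference of the sum between the Elane only range and the Ngp and Retnlg range, -0.61 in the media control, was -0.59 with a stage limit of 5 per 10000, -0.65 with 20, -0.57 at or below 10% mitochondrial UMIs, -0.56 without doublet removal and -0.75 after thinning. With deoxycholic acid it was -0.69, and -0.72, -0.67 and -0.71 with limits of 5 and 20 and after thinning. The median spread of pair shares beyond counting was 4.83 to 4.88 points in the media control and 4.70 to 4.72 with deoxycholic acid under the 3 alternatives run. The ratios of 7 members kept their sign in 7 of 7 alternatives; mt-Nd1 was -0.04 and -0.06, and mt-Co3 -0.05 and -0.07, with DESeq2 size factors and as a mean over cells. DESeq2 size factors moved all ratios by -0.06. Without a minimum level, 26.0% of 18225 genes were higher by 0.25 and 20.6% lower. No paired analysis was possible because cell names carry the group and not the letters a to d; for the same reason no replicate could be left out. Depth limits the last range: median cells hold 83 and 71 UMIs of the 9 genes, so pair shares there rest on the few cells with 50 UMIs of a pair.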

Other observations

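Within a stage range, some nuclear genes went with the share of mt-Nd1 in the 9-gene sum across cells; they were chosen after their values were seen and are given as a description, with r as the mean of both libraries over 4321 genes. In the Elane only range (1012 and 933 cells) the highest were Ranbp1 (0.41), a cofactor of nuclear transport, and Cycs (0.40), which codes for cytochrome c, and the lowest was Bnip3 (-0.34). In the Ngp only range (2853 and 2699 cells) Nme1 (0.43), a nucleoside diphosphate kinase, Atp5g1 (0.42), a ring subunit of ATP synthase, and Ms4a3 (0.40), a gene of granulocyte progenitors, were highest, while the lowest values included those of the secondary granule gene Ltf (-0.30) and the glucose transporter gene Slc2a3 (-0.31).

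Among cells at or below 10% mitochondrial UMIs, a limit chosen here after seeing the data, genes most like the 9-gene sum included the ribosomal protein genes Rplp1 (0.33), Rps12 (0.33) and Rpl41 (0.32) and the kinase gene Nme2 (0.33). None of the 5 highest over all kept cells was among the 5 highest there, and Rpsa came sixth. At the other end over all kept cells were Tmsb4x (-0.44), which codes for an actin-binding peptide, and Wfdc21 (-0.40).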
